A study of Mus musculus with 10 samples.

Results

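The 10 genes described here encode transcription factors that build and maintain the fat cell: Pparg, Cebpa, Cebpb, Cebpd, Klf15, Ebf1, Ebf2, Nr1h3, Rxra and Stat5a. They were taken by name. A probe set, the group of short probes that reads a transcript on the array, was given to a gene where the annotation paired it with exactly 1 symbol. Where a gene had several, the brightest on average was used. All 10 were found among the 17097 genes measured, and no filter on low values was applied. RNA came from the epididymal fat, a visceral depot beside the testis, of male mice aged 8 to 12 weeks at the start of a high fat diet (45 energy% fat), which all of them ate for 16 weeks. The 3 genotypes compared, on a C57/Bl6 background, were wild-type (WT, n = 4), ASC-/- (n = 3), which lack the inflammasome adaptor encoded by Pycard and whose genotype field reads ASC1 null, and Casp1-/- (n = 3), which lack caspase-1. Each array was hybridised with RNA of 1 mouse. The labels give neither the alleles nor whether WT mice were littermates, and no lean group is among the samples.

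Fat cells form in a cascade. Cebpb and Cebpd encode the C/EBP proteins that are induced first, and these turn on Pparg, the master regulator of the adipocyte, which acts on DNA as a pair with the retinoid X receptor encoded by Rxra. PPARgamma and C/EBPalpha (Cebpa) then keep each other on and activate the genes of lipid storage, helped by the early B cell factors Ebf1 and Ebf2, the Kruppel-like factor Klf15, the oxysterol receptor LXRalpha (Nr1h3) and Stat5a, which carries signals of growth hormone and prolactin. Several of these factors, LXRalpha, RXRalpha and the C/EBP proteins among them, are also made by macrophages.

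All values are log2 RMA signals. The 23 control probe sets meant to bind nothing had array medians of 2.91 to 3.15 and reached 5.01 at most, so that the lowest member value, 6.03, lay above them. The labels were checked on the targets. Pycard was 3.4 ± 0.27 in ASC-/- fat (SD, n = 3) against 9.82 ± 0.62 in WT (SD, n = 4), and Casp1 was 4.85 ± 0.14 in Casp1-/- fat (SD, n = 3) against 9.32 ± 0.55 in WT (SD, n = 4). The tissue carried its defining genes: the adipokine gene Adipoq lay at 13.23 to 13.73 and the fatty acid carrier gene Fabp4 at 13.82 to 14.01 on the 10 arrays. Bacterial poly-A transcripts, spiked in as controls, divided the arrays into a high set of 4 (the Casp1-/- arrays and WT replicate 1, means of 7.51 to 8.07) and a low set of 6 (the other WT and the ASC-/- arrays, 5.76 to 6.50). No label names this division, so values with the spike-in set as a block are given beside the results, where the Casp1-/- difference rests on WT replicate 1 alone.

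Of the 10 members, Pparg, Klf15, Rxra and Cebpb passed the threshold in at least 1 of the 3 comparisons below (limma, adjusted p under 0.05). The 250 bases before a RefSeq start of each (GRCm38.p6, plus strand) are shown for these 4, since in Casp1-/- fat the first 3 were higher and Cebpb lower. The Pparg stretch, chr6:115421816-115422065, lies before the most downstream of its 3 starts, that of the adipocyte form PPARgamma2. The others are chr6:90462326-90462575 for Klf15, chr2:27676951-27677200 for Rxra and chr2:167688665-167688914 for Cebpb. Capitals mark matches on either strand to motifs that were searched for. The first is TTGCNNAA, a loose spelling of the site of the C/EBP proteins in which only TTGC and the closing AA are fixed. The E-box, bound by basic helix-loop-helix factors, is spelled CACGTG. The GC box, bound by SP and KLF proteins, was searched as GGGCGG. The core promoter elements searched were the CCAAT box and the TATA box.
Pparg: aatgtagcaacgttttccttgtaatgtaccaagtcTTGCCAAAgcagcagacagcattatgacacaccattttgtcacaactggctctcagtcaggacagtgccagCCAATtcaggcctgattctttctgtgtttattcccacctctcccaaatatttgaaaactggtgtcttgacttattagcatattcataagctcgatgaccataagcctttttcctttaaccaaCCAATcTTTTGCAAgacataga
Klf15: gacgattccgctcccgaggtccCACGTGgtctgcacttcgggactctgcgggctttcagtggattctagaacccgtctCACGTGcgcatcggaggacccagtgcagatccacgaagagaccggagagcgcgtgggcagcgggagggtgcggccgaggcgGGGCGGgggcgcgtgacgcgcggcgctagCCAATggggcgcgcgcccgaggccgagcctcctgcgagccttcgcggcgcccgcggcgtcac
Rxra: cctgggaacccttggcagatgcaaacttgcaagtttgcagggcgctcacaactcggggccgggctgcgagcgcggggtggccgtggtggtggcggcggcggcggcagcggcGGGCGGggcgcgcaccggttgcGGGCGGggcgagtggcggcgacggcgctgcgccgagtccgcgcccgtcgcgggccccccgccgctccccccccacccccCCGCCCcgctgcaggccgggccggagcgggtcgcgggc
Cebpb: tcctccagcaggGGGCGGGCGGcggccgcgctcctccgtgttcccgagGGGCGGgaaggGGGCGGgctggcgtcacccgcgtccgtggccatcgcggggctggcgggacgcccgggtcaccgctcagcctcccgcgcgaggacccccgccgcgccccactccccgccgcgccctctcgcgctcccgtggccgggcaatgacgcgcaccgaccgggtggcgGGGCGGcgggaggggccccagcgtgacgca

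The Pparg stretch held 2 C/EBP matches, 1 of them, TTTTGCAA, at 16 to 9 bases before the start, and 2 CCAAT matches. TTGCNNAA was found in 9.56% of the 32851 RefSeq windows of this length and in 1 of the 14 windows of the members. Klf15 held 2 E-boxes (6.02% of all windows had 1 or more), 1 GC box and 1 CCAAT match (33.8% of all windows had 1 or more). Rxra held 3 GC boxes and Cebpb 5, of which 1 pair overlapped (32.7% of all windows had 1 or more). The TATA box, searched as TATAAA (12.4% of all windows), was in none of the 4 stretches shown. No member window held TTCNNNGAA for the STAT proteins (7.02% of all windows), the direct repeat bound by PPARgamma with RXRalpha (0.0335%), the EBF palindrome (0.779%) or the palindrome of the glucocorticoid receptor (0.387%), which says only that these letters are not in these windows. RefSeq windows were at hand for 8 of the 10 members, not for Cebpd and Ebf2. The matches are descriptions of the sequence and no measurement of binding. Pparg had 1 probe set, and the files do not say whether it separates PPARgamma1 from PPARgamma2.

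The comparison of Casp1-/- with WT asked what the loss of caspase-1 did to these regulators. Pparg, Rxra and Klf15 rose, by 1.84-fold, 1.75-fold and 2.77-fold, and no member fell past the threshold, Cebpb missing it with a difference of -0.30. So 3 of 10 members passed, where 8.17% of all genes did (4.31% higher and 3.86% lower). The median difference of the 10 was 0.34 against 0.041 over all genes, with 9 above 0 and 1 below. Of the 10, 6 had an unadjusted p under 0.05, against 27.6% of all genes. In 6 of 10 the Casp1-/- arrays did not overlap the WT arrays, against 24.7% of all genes.

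**Figure D1:**
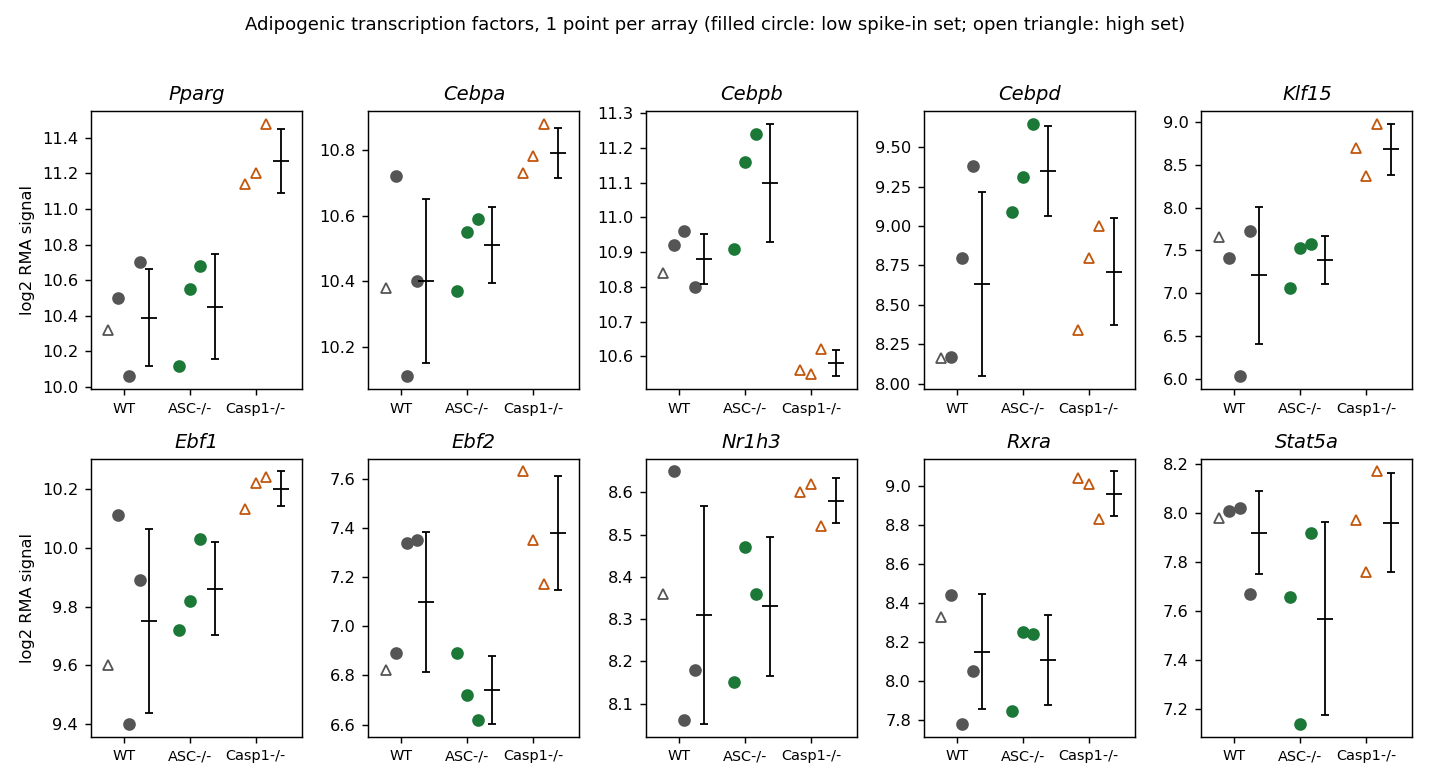
Log2 RMA signal (y axis) of each member on each array, by genotype (x axis); black bars give the mean ± SD, filled circles are arrays of the low spike-in set and open triangles those of the high set. For Pparg, Rxra and Klf15 the Casp1-/- arrays all lie above the WT and ASC-/- arrays, and for Cebpb they all lie below.

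Among the nuclear receptors, Pparg was 11.14, 11.20 and 11.48 on the Casp1-/- arrays and 10.32, 10.50, 10.06 and 10.70 on WT replicates 1 to 4. Every Casp1-/- array thus lay above every WT array, and the rise was 0.88 ± 0.18 on the log2 scale (SE, limma adjusted p = 0.0234). Against WT replicate 1, its only WT partner in the high spike-in set, it was 0.95 ± 0.28 with the block (SE, adjusted p = 0.207). Rxra, its partner, was 9.04, 9.01 and 8.83 in Casp1-/- fat and 8.33, 8.44, 7.78 and 8.05 in WT. Again the groups did not overlap, with a rise of 0.81 ± 0.17 (SE, adjusted p = 0.0242) that was 0.63 ± 0.25 with the block (SE, adjusted p = 0.360). Rxra had 2 more probe sets. The one near 5.67 gave 0.60 with no overlap (adjusted p = 0.0189 in the fit of all probe sets), and the one near 3.60, within the range of the controls, gave 0.11. Nr1h3, the receptor for oxysterols, was 8.60, 8.62 and 8.52 against 8.36, 8.65, 8.06 and 8.18, so WT replicate 2 lay above all Casp1-/- arrays. Its difference of 0.27 ± 0.14 missed the threshold (SE, adjusted p = 0.247; 0.22 with the block).

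Klf15, a factor that glucocorticoids induce and that raises the glucose transporter GLUT4 and amino acid breakdown, had the largest difference of the 10 members. It was 8.70, 8.37 and 8.97 in Casp1-/- fat and 7.66, 7.41, 6.03 and 7.73 in WT. WT replicate 3 stood far below the other WT arrays, which lay between 7.41 and 7.73. The rise was 1.47 ± 0.38 (SE, adjusted p = 0.0460), 1.08 without WT replicate 3 and 1.02 with the block (adjusted p = 0.546). It was the call nearest to the threshold and was lost without any 1 of 8 of the 10 arrays, WT replicates 1 and 3 being the exceptions.

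The C/EBP genes did not move as 1 group. Cebpa was 10.73, 10.78 and 10.88 in Casp1-/- fat against 10.38, 10.72, 10.11 and 10.40 in WT, without overlap, though WT replicate 2 almost reached the lowest Casp1-/- array. The difference of 0.39 ± 0.13 missed the threshold (SE, adjusted p = 0.0951; 0.41 with the block). Cebpb was the one member below WT, at 10.56, 10.55 and 10.62 against 10.84, 10.92, 10.96 and 10.80. The groups did not overlap, the spread within each was small (SD of 0.037 and 0.073), and the difference of -0.30 ± 0.090 missed the threshold (SE, adjusted p = 0.0677; -0.26 with the block). A second probe set of Cebpb, near 9.39, gave -0.37, also without overlap, while the third lay near 3.94 among the controls. Cebpd, the other early C/EBP gene, was 8.34, 8.80 and 9.0 against 8.16, 8.17, 8.80 and 9.38. Its arrays overlapped, with a difference of 0.083 ± 0.30 (SE, adjusted p = 0.892) that was 0.55 with the block.

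Of the early B cell factors, Ebf1 was 10.13, 10.22 and 10.24 in Casp1-/- fat and 9.60, 10.11, 9.40 and 9.89 in WT. The groups did not overlap, but the difference of 0.44 ± 0.16 missed the threshold (SE, adjusted p = 0.109; 0.60 with the block). Its other probe sets gave 0.60 and 0.37, also without overlap. Ebf1 is made by B cells as well. The B cell markers had means of 4.12 to 4.73 on the 10 arrays. Pax5 (3.23 to 3.45) and Cd79a (3.84 to 4.45) lay within the range of the controls throughout. Ms4a1 ran from 4.32 to 6.56 and Cd79b from 4.58 to 6.02, while Cd22, at 5.93 to 7.74, lay above the controls on every array. The part of B cells in the Ebf1 difference was not tested. Ebf2, which marks brown and beige adipocytes and their precursors, was 7.63, 7.35 and 7.17 against 6.82, 6.89, 7.34 and 7.35. Its arrays overlapped (difference 0.28 ± 0.17, SE, adjusted p = 0.302; 0.56 with the block), and its other probe sets gave 0.23 and 0.13. Stat5a, at 7.97, 7.76 and 8.17 against 7.98, 8.01, 8.02 and 7.67, differed by 0.043, with an interval of -0.36 to 0.45 (-0.020 with the block).

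These 3 calls rested on every Casp1-/- array. Without any single one of them 0 members passed in limma, though 4 to 6 kept an unadjusted p under 0.05, and 1 passed without WT replicate 4 (Pparg). With the spike-in set as a block 0 passed, 4 having an unadjusted p under 0.05, where 120 of all genes passed. Within the high spike-in set the 3 Casp1-/- arrays lay above WT replicate 1 for 8 members and below it for Cebpb, and overlapped it for Stat5a. The fitted differences of Pparg, Klf15 and Rxra stayed above 0 under all 23 other processing choices, from 0.51 to 0.98, 1.02 to 1.65 and 0.44 to 0.91. Many of these choices, such as leaving out an ASC-/- array or other empirical Bayes options, cannot change the difference. Since the groups did not overlap, leaving out a single array could not turn its sign either.

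**Figure D2:**
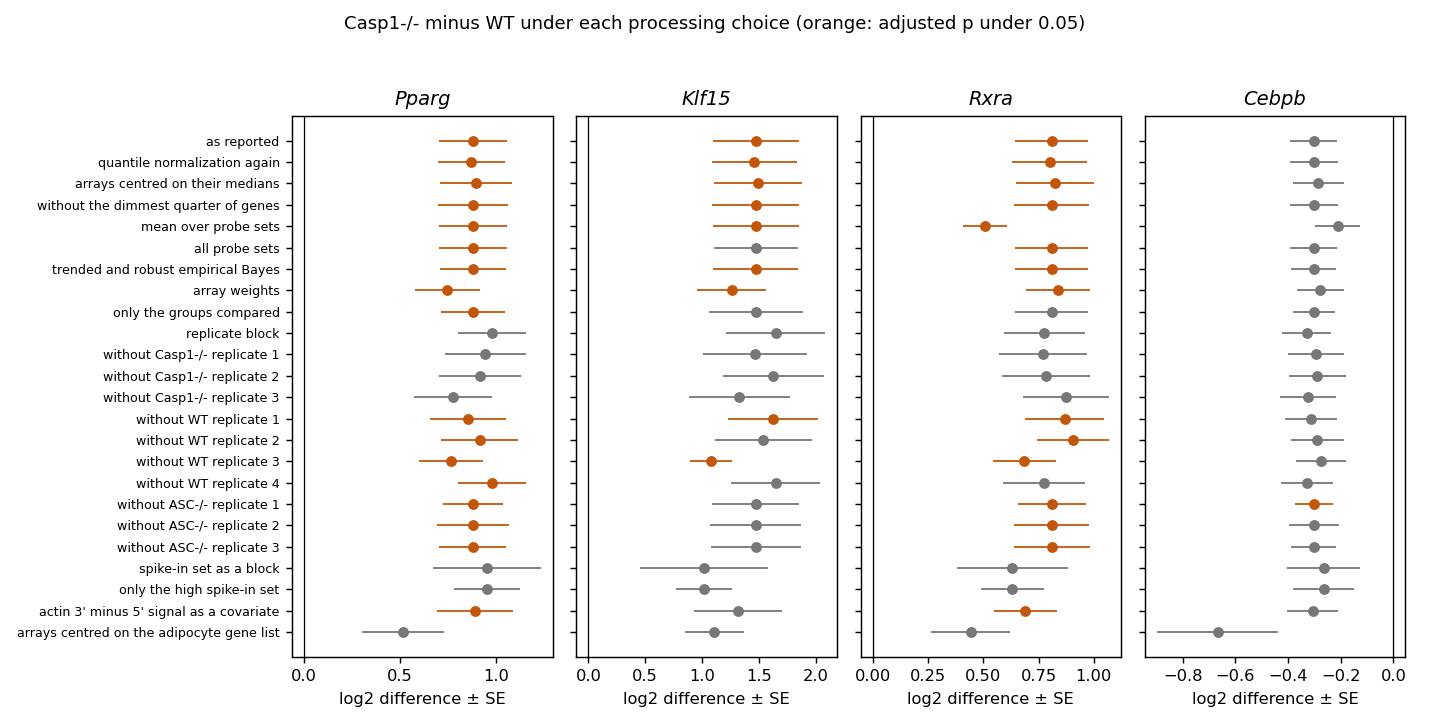
Log2 difference Casp1-/- minus WT (x axis, ± SE) of Pparg, Klf15, Rxra and Cebpb under each processing choice (y axis); orange points have an adjusted p under 0.05. The Pparg, Klf15 and Rxra points all lie above 0 and the Cebpb points below 0, while the calls come and go. Many of the choices cannot change the difference.

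The comparison of ASC-/- with WT asked the same of the adaptor. In limma 0 of 10 members passed (0.0351% of all genes did), 2 had an unadjusted p under 0.05 (2% of all genes did), and in 0 of 10 did the ASC-/- arrays lie apart from the WT arrays (3.19% of all genes). The median of the 10 was 0.082 against 0.0050 over all genes. Cebpd was 9.09, 9.31 and 9.65 in ASC-/- fat, so that replicate 3 alone lay above the highest WT array (9.38). Its difference of 0.72 ± 0.30 (SE, adjusted p = 0.999969) was the largest of the 10, and 0.56 with the block. Cebpb was 10.91, 11.16 and 11.24 against a highest WT value of 10.96, which replicate 1 did not reach, a difference of 0.22 ± 0.090 (SE, adjusted p = 0.999969; 0.21 with the block), and its second probe set gave 0.34 without overlap.

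The remaining 8 members gave smaller differences than Cebpd in ASC-/- fat. Pparg was 10.12, 10.55 and 10.68 in ASC-/- fat, inside the WT spread, with a difference of 0.058 and an interval of -0.34 to 0.46. The intervals of Rxra (-0.41 to 0.34) and Klf15 (-0.67 to 1.03) also held 0, and that of Klf15 held a doubling. Ebf2 was 6.89, 6.72 and 6.62 against 6.82 to 7.35, and Stat5a 7.66, 7.14 and 7.92 against 7.67 to 8.02. Their differences of -0.36 and -0.35 missed the threshold, and Stat5a varied more within ASC-/- fat (SD 0.39) than any other member. Cebpa (0.10), Ebf1 (0.11) and Nr1h3 (0.016) lay nearer to 0. With the block, Klf15 stood at 0.33, Cebpa at 0.097, Ebf1 at 0.056, Pparg at 0.034, Nr1h3 at 0.032 and Rxra at 0.020, while Ebf2 was -0.45 and Stat5a -0.33.

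**Figure D3:**
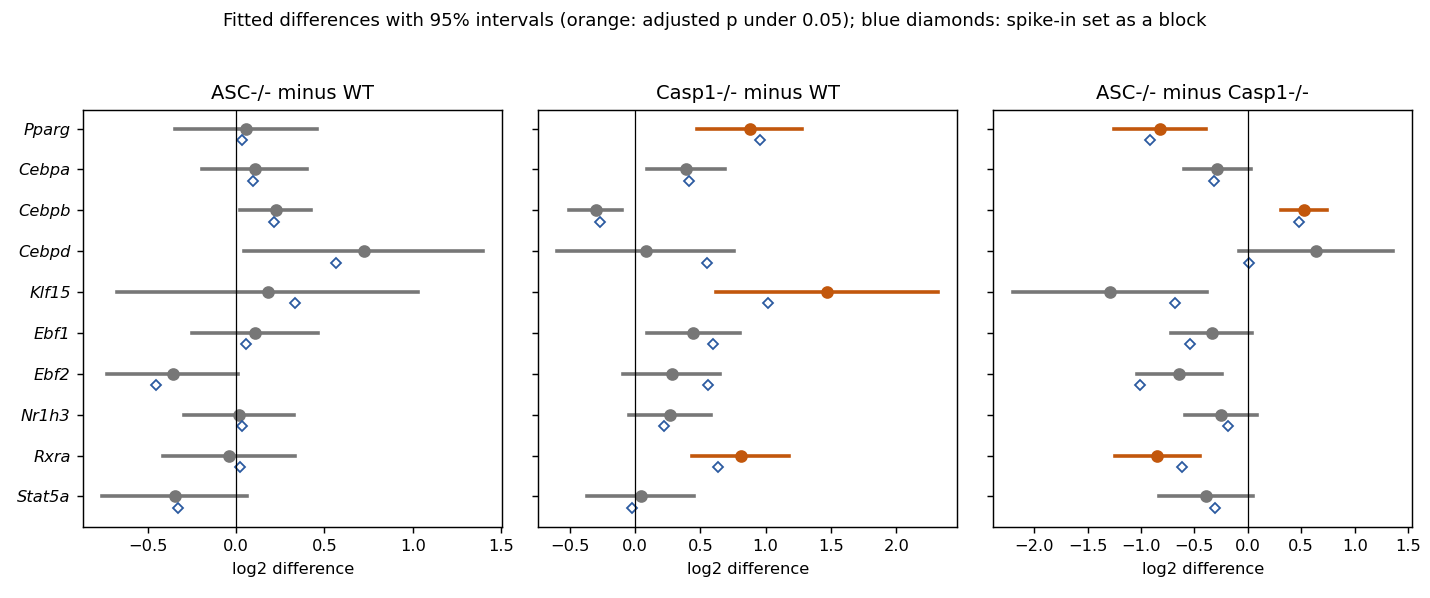
Fitted log2 differences (x axis) of the 10 members (y axis) with 95% intervals in the 3 comparisons; orange marks an adjusted p under 0.05 and blue diamonds the value with the spike-in set as a block. Pparg, Klf15 and Rxra pass for Casp1-/- minus WT, none for ASC-/- minus WT, and Pparg, Rxra and Cebpb for ASC-/- minus Casp1-/-.

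Set directly against each other, the null genotypes differed in 3 of 10 members, with 7.39% of all genes past the threshold (3.85% higher and 3.54% lower). The unadjusted p was under 0.05 for 5 of 10, against 26% of all genes. This comparison shares its arrays with those above. All Casp1-/- arrays were in the high spike-in set and all ASC-/- arrays in the low set. Without the block, genotype and spike-in set can therefore not be told apart here. Pparg and Rxra were lower in ASC-/- than in Casp1-/- fat, by -0.82 ± 0.19 (SE, adjusted p = 0.0351) and -0.85 ± 0.18 (SE, adjusted p = 0.0262). Cebpb was higher, by 0.53 ± 0.096 (SE, adjusted p = 0.0173), and its second probe set gave 0.70 (adjusted p = 0.0199 over all probe sets). The Cebpb means of the null genotypes lay on opposite sides of WT without either difference from WT passing, as did those of Ebf2 and Stat5a. In 9 of 10 members the arrays of the 2 genotypes did not overlap, against 40.4% of all genes, Stat5a being the one that did.

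Klf15 (-1.29, adjusted p = 0.0833) and Ebf2 (-0.64, adjusted p = 0.0584) missed the threshold. Ebf2 was 7.17 to 7.63 in Casp1-/- and 6.62 to 6.89 in ASC-/- fat, and its other probe sets gave -0.33 and -0.25. With the block, where the 2 genotypes are compared only through WT, the differences were -0.92 for Pparg, -0.61 for Rxra, 0.48 for Cebpb, -0.69 for Klf15 (adjusted p = 0.865) and -1.01 for Ebf2 (adjusted p = 0.245), and 0 members passed in limma (3 with an unadjusted p under 0.05). Cebpd was 0.64 higher in ASC-/- fat without overlap, and 0.015 with the block. The remaining differences with the block were -0.32 for Cebpa, -0.54 for Ebf1, -0.19 for Nr1h3 and -0.31 for Stat5a. The count fell to 0 without any 1 of the Casp1-/- arrays or ASC-/- replicate 2, to 1 (Cebpb) without ASC-/- replicate 1, and rose to 5 without WT replicate 3.

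The genes that these factors act on or with were read from lists, which were chosen with earlier results of these data known. No filter on low values was applied to the lists either, so genes within the range of the controls count in the medians. Examples are Pck1 (2.95 to 3.28) of the adipocyte list and Foxo1 (3.28 to 3.84) and Wnt10b (3.29 to 3.75) of the anti-adipogenic list. Of 27 adipocyte genes and PPARgamma targets, 2 rose in Casp1-/- fat and 0 fell, with 21 above WT and a median of 0.31. These were the lipogenic enzyme genes Acaca (1.15, adjusted p = 0.0234) and Fasn (0.86, adjusted p = 0.0461). The share that passed, 7.41%, was close to the 8.17% of all genes. With the block the median was 0.12 with 15 of 27 above WT, Acaca stood at 0.77 and Fasn at 0.46, and 0 passed. Adipoq was 0.22 higher in Casp1-/- fat without overlap (adjusted p = 0.206).

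Of 13 amino acid breakdown genes linked to KLF15, 4 rose and 0 fell, with a median of 0.61. Examples are the alanine transaminase gene Gpt2 (1.06, adjusted p = 0.00539), the mitochondrial dehydrogenase gene Hsd17b10 (0.51, adjusted p = 0.0247) and the proline dehydrogenase gene Prodh (1.5, adjusted p = 0.0360). The share that passed was 30.8%. With the block the median was 0.30 and 0 passed, Gpt2 standing at 0.98, Hsd17b10 at 0.34 and Prodh at 1.10. In ASC-/- fat the median of this list was -0.026. Aass (3.11 to 4.17) and Tat (3.19 to 3.61) of this list lay within the range of the controls, and Tdo2 ran from 3.21 to 5.21. Their differences for Casp1-/- minus WT, 0.73, -0.071 and 0.70, count in its median.

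Of 25 other transcription factors that promote adipogenesis, 4 rose and 1 fell. Zfp467 (0.74, adjusted p = 0.0160), the carbohydrate-response factor gene Mlxipl (1.14, adjusted p = 0.0350) and the glucocorticoid receptor gene Nr3c1 (0.38, adjusted p = 0.0382) rose, and the immediate early gene Egr2 fell (-2.10, adjusted p = 0.0138). Of 26 anti-adipogenic factors and signals, 2 rose, Id3 (0.56) and Bhlhe40 (0.81), and 1 fell, Id2 (-1.20). Of 17 coactivators and corepressors 1 rose, Ncoa1 (0.27), and 1 fell, Kmt2d (-0.35). The medians of the last pair of lists were 0.10 and 0.017. The shares that passed were 20%, 11.5% and 11.8% for these 3 lists. With the block 0 of their genes passed, and the medians were 0.058, 0.062 and 0.069. On that fit Zfp467 was 0.86, Mlxipl 0.80, Nr3c1 0.51 and Egr2 -1.58. Id3 was 0.28, Bhlhe40 1.07, Id2 -1.15, Ncoa1 0.33 and Kmt2d -0.23.

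The targets of LXR, the receptor pair of Nr1h3 with Rxra, moved both ways in Casp1-/- fat. Of 14, Fasn rose, while Pltp, a phospholipid transfer protein (-1.61, adjusted p = 0.0118), and Abcg1, a cholesterol exporter (-1.12, adjusted p = 0.0367), fell. Macrophages express both genes that fell. Of 19 glucocorticoid response genes 2 rose, Nr3c1 and Hsd11b1, which makes active glucocorticoid inside fat (0.96, adjusted p = 0.0369), and 1 fell, the pyruvate dehydrogenase kinase gene Pdk4 (-2.01, adjusted p = 0.0125). Of 14 genes of growth hormone, prolactin and STAT5 signalling and of 14 brown and beige adipocyte genes 0 passed in limma (3 and 0 at an unadjusted p under 0.05), with medians of 0.093 and 0.0050. The shares that passed were 21.4% of the LXR targets and 15.8% of the glucocorticoid genes. With the block 0 genes of either list passed and their medians were 0.011 and 0.168, with Pltp at -0.94, Abcg1 at -0.58, Hsd11b1 at 0.92 and Pdk4 at -2.19, while 2 brown or beige genes passed. In ASC-/- fat 0 of the 244 distinct genes of all 16 lists passed in limma, and 16 had an unadjusted p under 0.05. Of these, 7 belonged to the 19 of the glucocorticoid list, whose median there was 0.24. Another 4 belonged to the 10 of the T cell and NK cell list, with a median of -0.21. The means of that T cell and NK cell list were low, at 3.96 to 4.51 on the 10 arrays.

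**Figure D4:**
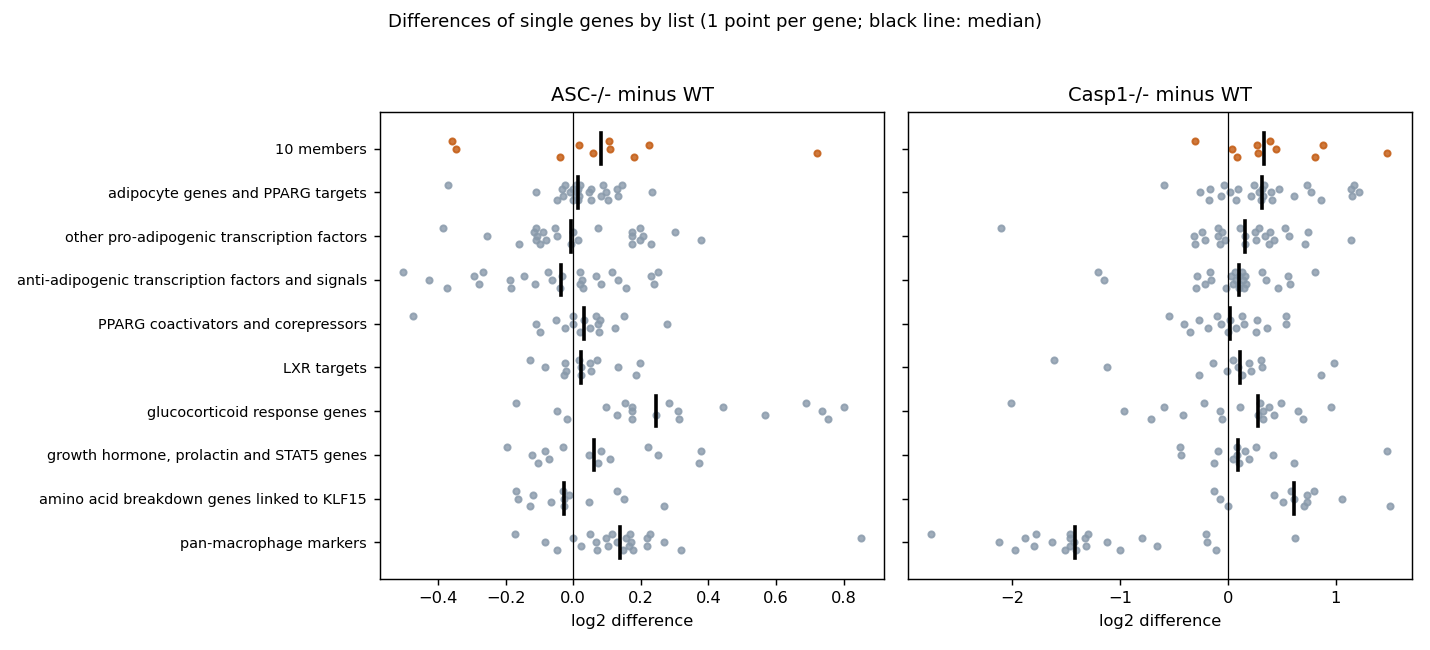
Log2 difference of each gene (x axis, 1 point per gene) by list (y axis) for ASC-/- minus WT on the left and Casp1-/- minus WT on the right, with different x scales; black lines are medians. On the right the members (0.34), the adipocyte genes (0.31) and the amino acid breakdown genes (0.61) have medians above 0 and the macrophage markers (-1.42) below. All other lists drawn also have medians above 0, from 0.017 for the coactivators and corepressors to 0.28 for the glucocorticoid genes (0.041 over all genes). The endothelial (0.49) and mesothelial (0.73) lists, which are not drawn, also had medians above 0 there.

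Between the null genotypes, 1 adipocyte gene was lower in ASC-/- fat, Acaca (-1.20), as were 2 amino acid breakdown genes, Gpt2 (-1.09) and Hsd17b10 (-0.58). Of the pro-adipogenic factors Zfp467 (-0.86), Nr3c1 (-0.43) and Nfia (-0.64) were lower and Egr2 higher (2.02). Of the anti-adipogenic list Id3 (-0.71) and Bhlhe40 (-1.08) were lower. Pltp (1.80) and Abcg1 (1.14) of the LXR targets were higher. Of the glucocorticoid list Pdk4 (2.18), the phosphatase gene Dusp1 (1.46) and the cell cycle inhibitor gene Cdkn1a (0.73) were higher and Nr3c1 and Hsd11b1 (-0.97) lower. The shares that passed were 3.7% of the adipocyte, 15.4% of the amino acid, 16% of the pro-adipogenic and 7.69% of the anti-adipogenic list. They were 14.3% of the LXR targets and 26.3% of the glucocorticoid list, where 7.39% of all genes passed. With the block 0 genes of these 6 lists passed, and several differences were smaller: Acaca -0.68, Hsd17b10 -0.35, Nfia -0.41, Id3 -0.33, Egr2 1.32, Pltp 0.91 and Abcg1 0.43. Zfp467 (-1.02), Nr3c1 (-0.60), Bhlhe40 (-1.43), Gpt2 (-0.99), Hsd11b1 (-0.93), Pdk4 (2.42), Dusp1 (1.20) and Cdkn1a (0.71) kept sizes nearer to those without it. The coactivator, STAT5 and brown or beige lists had 0 past the threshold in limma (7, 0 and 0 at an unadjusted p under 0.05), and 2 brown or beige genes passed with the block.

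Markers of other cell types moved with the genotype. Of 24 pan-macrophage markers 17 fell in Casp1-/- fat and 0 rose (median -1.42; -0.65 with the block, 1 passing). The share that passed was 70.8%, against 8.17% of all genes. Adgre1, Cd68, Tyrobp and Mpeg1, all expressed on or in macrophages, fell (-1.97, -2.12, -1.5 and -1.63). With the block they stood at -1.23, -1.26, -0.98 and -1.12. Between the null genotypes 16 markers were higher in ASC-/- fat and 0 lower, or 66.7% against 7.39% of all genes. Their median there was 1.51 (0.53 with the block). The mean of the macrophage list was 8.79 to 9.10 on the Casp1-/- arrays, 9.58 to 10.89 in WT and 10.20 to 10.62 in ASC-/- fat. The mean of the adipocyte list ran 11.08 to 11.16, 10.21 to 11.07 and 10.57 to 10.89. In whole tissue, more fat cells and more RNA of a factor per fat cell cannot be told apart, and the part of these shifts in the members' rises was not tested.

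Among the other marker lists, 1 progenitor gene, Col1a1, fell in Casp1-/- fat (-1.07) and Col1a1 and Col3a1 were higher in ASC-/- than in Casp1-/- fat (1.44 and 0.39). Of the T cell list Cd2 (-0.56) and of the endothelial list Egfl7 (-0.79) were lower in that comparison. The share of the progenitor list that passed for Casp1-/- minus WT was 6.67%, against 8.17% of all genes. Between the null genotypes 13.3% of the progenitor, 10% of the T cell and 7.69% of the endothelial list passed, against 7.39% of all genes. With the block Col1a1 stood at -0.26 against WT (adjusted p = 0.772) and at 0.37 between the null genotypes (adjusted p = 0.831), Col3a1 at 0.18, Cd2 at -0.60 and Egfl7 at -0.44, and 0 passed. Endothelial markers had a median of 0.49 in Casp1-/- fat, with 11 of 13 above WT and 0 past the threshold in limma (7 at an unadjusted p under 0.05). The B cell, mesothelial and epididymis lists had 0 past the threshold in limma in any comparison, with at most 1 gene of a list at an unadjusted p under 0.05. The mesothelial markers nevertheless had a median of 0.73 in Casp1-/- fat, with 7 of 9 above WT (0.64 with the block). Between the null genotypes their median was -0.82 (-0.85 with the block). The epididymis markers had a mean of 4.77 on Casp1-/- replicate 2 and 4.16 on WT replicate 2 against 3.20 to 3.89 on the rest, and the mesothelial markers reached 7.67 on the former.

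Arrays also differed within genotypes. WT replicate 3 had the highest macrophage mean (10.89) and the lowest adipocyte mean (10.21) of all arrays, and it held the lowest WT value of 6 members, Pparg, Cebpa, Klf15, Ebf1, Nr1h3 and Rxra. In ASC-/- fat, replicate 1 had the highest macrophage mean (10.62) and the lowest adipocyte mean (10.57), and the lowest value of 8 members, all but Ebf2 and Stat5a. Other arrays did not follow this order. Among the Casp1-/- arrays, replicate 3 had the highest macrophage mean (9.10) and also the highest adipocyte mean (11.16) and the highest value of 7 members. WT replicate 4, with the second highest WT macrophage mean (10.48), held the highest WT value of Pparg and Klf15. In WT replicate 1 the macrophage mean was the lowest of WT (9.58), above the 8.79 to 9.10 of the Casp1-/- arrays. Its adipocyte mean was 11.07, and the lowest Casp1-/- mean was 11.08. Its Pparg was 10.32, and the lowest Casp1-/- value was 11.14. Each array was also centred on the adipocyte list, a choice added after the values had been seen. For Casp1-/- minus WT this moved the median of all genes to -0.33. The list holds targets of PPARgamma, so the centring cannot tell the amount of fat cells apart from the action of PPARgamma. The members stood at 0.51 for Pparg, 0.44 for Rxra, 1.11 for Klf15, 0.025 for Cebpa and -0.67 for Cebpb on that scale, where 5 members lay above 0 and 5 below and 0 passed in limma (4 at an unadjusted p under 0.05).

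**Figure D5:**
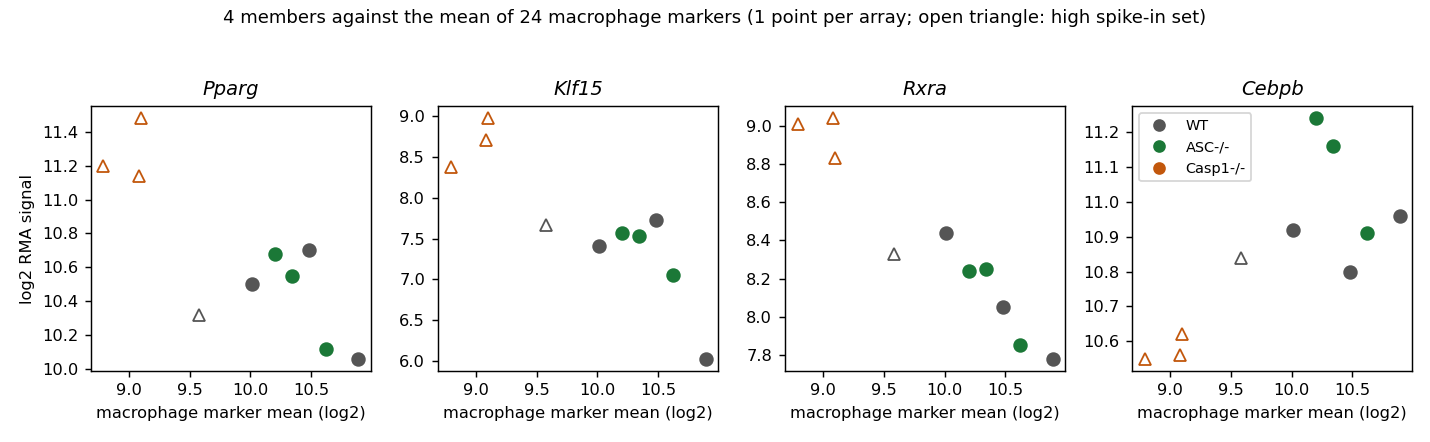
Log2 RMA signal (y axis) of Pparg, Klf15, Rxra and Cebpb against the mean log2 signal of 24 macrophage markers (x axis), 1 point per array, coloured by genotype, with open triangles for the high spike-in set. The Casp1-/- arrays, at macrophage means of 8.79 to 9.10, lie apart from the rest, and WT replicate 3, at 10.89, has the lowest Pparg, Klf15 and Rxra values.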

How the data were processed

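Affymetrix HT_MG-430 PM arrays were hybridised with RNA of 10 mice. Their probes sit mostly toward the 3' end of transcripts. The authors deposited log2 signals; RMA is named in the submitters' processing notes, without a version. RMA forces 1 distribution onto all arrays, so a change in total RNA per cell leaves no trace. Of 45141 probe sets, 28898 had 1 gene symbol, 551 several and 15692 none, leaving 17097 genes. The number of arrays limits the precision.

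Genes were fitted in R 4.3.3 (limma 3.58.1) to a model of genotype means, default empirical Bayes (7 residual and 2.43 prior degrees of freedom) and two-sided contrasts. P-values were adjusted by Benjamini-Hochberg across the 17097 genes, with a threshold of 0.05; "rose" and "fell" are used only past it. The members, 16 gene lists (256 of 301 entries matched) and tests were chosen with earlier results of these data known. Genes named are the members, both targets, Adipoq, Adgre1 and, per list and contrast, up to 3 genes past the threshold in each direction with the smallest p. Fabp4, Pax5, Cd79a, Cd79b, Cd22, Ms4a1, Pck1, Foxo1, Wnt10b, Aass, Tat and Tdo2 were named after their values had been seen.

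Alternatives covered normalization, dim genes, probe sets, empirical Bayes options, array weights, groups fitted, single arrays left out, the replicate number or spike-in set as a block, and the actin 3' minus 5' signal as a covariate. On simulated data for the Casp1-/- contrast over 17097 genes the fit found 79 of 100 genes changed by 1 on the log2 scale and 95 of 100 changed by 2. It also called 10 unchanged genes. The simulated noise was independent between genes and held neither spike-in sets nor shifts of cell types. These counts therefore do not give the power of the real contrast.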

Additional observations from a re-analysis of the deposited data

Results flagged for a closer look

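Stat5a on WT replicate 4 was 7.67 while the other 3 WT arrays lay between 7.98 and 8.02, a gap of 0.899 of the whole WT range. With 4 arrays such a gap is reached by chance in about 1 of 20 groups, and 10 members were examined. Without that array the Stat5a difference Casp1-/- minus WT was -0.042 in place of 0.043.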

How the results depend on the processing

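The comparison of ASC-/- with WT had 0 members past the threshold in limma under every alternative. For Casp1-/- minus WT 3 members passed, and 2 to 4 did under most other choices. This became 1 with only the compared groups fitted, and 0 with the replicate block, with the spike-in set as a block, with only the high spike-in set and with arrays centred on the adipocyte list (added later); single arrays left out gave 0 to 4. For ASC-/- minus Casp1-/- the 3 became 5 with array weights or only the compared groups, and 0 with the replicate block, the spike-in block, the actin covariate and the adipocyte centring; single arrays left out gave 0 to 5. The causes were not tested.

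The replicate numbers did not pair the mice: deviations of same-numbered arrays correlated at -0.26 to 0.19. The replicate block left 9 and 19 genes of 1397 and 1264 and lost all member calls, with Pparg at 0.98, Klf15 at 1.65 and Rxra at 0.78 for Casp1-/- minus WT. Counts over all genes for Casp1-/- minus WT were 2189 over all probe sets, 2998 with array weights, 469 with only the compared groups, 120 with the spike-in block, 226 in the high set and 241 after adipocyte centring; for ASC-/- minus Casp1-/- they were 2009, 3428, 3248, 63 with the block and 212 after that centring, and 231 with the actin covariate. Single arrays left out gave 64 to 3018 and 47 to 2615. For ASC-/- minus WT the 6 genes ranged from 2 to 11.

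These signs turned. For ASC-/- minus WT, Rxra became 0.042 (mean over probe sets), 0.047 (array weights), 0.020 (spike-in block and low set) and 0.076 (actin), and Nr1h3 -0.029 (replicate block) and -0.007 (adipocyte centring). For Casp1-/- minus WT, Stat5a became -0.093 (mean over probe sets), -0.042 (replicate block), -0.020 (spike-in block and high set), -0.029 (actin) and -0.32 (adipocyte centring), Cebpd -0.20 (array weights) and -0.28 (adipocyte centring), Ebf2 -0.083 and Nr1h3 -0.098 (both adipocyte centring). For ASC-/- minus Casp1-/- that centring gave Cebpa 0.056, Ebf1 0.0050 and Nr1h3 0.090. Leaving out single arrays gave, for ASC-/- minus WT, -0.057 to 0.22 for Pparg, -0.21 to 0.35 for Klf15, -0.0080 to 0.23 for Ebf1, -0.068 to 0.13 for Nr1h3 and -0.16 to 0.094 for Rxra, and for Casp1-/- minus WT -0.073 to 0.33 for Cebpd and -0.058 to 0.14 for Stat5a.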
